A study of Mus musculus with 2 samples.

Results

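The genes described here are 32 genes of bile acid synthesis, transport and sensing, read in wild-type and Prox1 conditional knockout fetal mouse liver. They were chosen by name for their roles, from the hydroxylases that start synthesis to the receptors that sense bile acids. A probe set counted for a gene where the platform annotation gives it that gene and no other. All 32 genes had at least 1 such probe set, 57 in all, among 18193 genes on the array with a probe set of their own. The data are 2 single-colour arrays of whole liver RNA taken from embryos at E14.5, both of the strain label NMRI/C57Bl6. The first array holds a wild-type sample. The second holds a Prox1 f/f;Foxa3Cre sample, called the knockout below. Here both Prox1 alleles are floxed and Cre recombinase, an enzyme that cuts out floxed DNA, is driven by Foxa3, a gene of the endoderm that forms gut and liver. Cre is therefore not limited to the hepatoblasts, the common precursors of hepatocytes and bile duct cells. The labels do not give the number of embryos behind each RNA sample.

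Bile acids are made from cholesterol in hepatocytes. In the classic pathway a hydroxylase of the endoplasmic reticulum acts first on the sterol ring, and in the alternative pathway the side chain is oxidized first. Peroxisomes then shorten the side chain, and the product is joined to taurine or glycine. Bile acids leave the hepatocyte through transporters of the canalicular membrane, which faces the bile, and return from the blood through the basolateral membrane. The nuclear receptor FXR, encoded by Nr1h4, binds bile acids and lowers their synthesis. Fetal liver, which serves as a blood-forming organ, carries out less of this than adult liver.

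With 1 array per genotype there is no replicate of either, so no test between genotypes was possible and each difference is one between these 2 samples. Genes were instead described by size. Signals are MAS5 units on a linear scale, and a floor of 112.6, the higher of the array medians, was applied before taking log2. A gene is represented by its brightest probe set, and a gene above the floor on 1 array only has a bound in place of a difference. All log2 differences are knockout minus wild type. Dim genes read slightly higher on the knockout array: among genes with a mean signal below 250 and above the floor on both arrays, the median log2 difference was 0.12. The signal of Prox1 itself went from 340 in wild type to 222 in the knockout on its brightest probe set, from 206 to 111.8 on the next and from 175 to 66.7 on the last, the latter pair ending below the floor. The labels do not say whether these probe sets lie in the deleted part. The arrays also differed in sex-linked RNA, with Xist at 11467 and 366 and the Y-linked gene Eif2s3y at 0.87 and 1972, so sex and genotype cannot be told apart for any gene below.

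Bile acid genes differed in both directions. The bile acid receptor gene Nr1h4 and Cyp7a1, the rate-limiting hydroxylase of the classic pathway, were the members at least 2-fold higher in the knockout. Acox2, Slc27a5 and Abcb11, which act in side chain oxidation, conjugation and export into bile, were the members at least 2-fold lower. A total of 28 members was above the floor on at least 1 array, and 23 of these 28 stayed under 2-fold by their difference or bound. Over all 11397 measured genes the share was 3.27% for 2-fold higher and 2.13% for 2-fold lower, 5.4% together. The members' shares were 7.14% and 10.7%, which rest on 2 and 3 genes of 28, so nothing particular to the group is read from them. The 19 members above the floor on both arrays had a median log2 difference of -0.31, with 14 below 0 and 5 above 0, while the median over all 10221 such genes was 0.01 and 47.9% of them were below 0. Of the 19 members, 5 had differences outside the middle 95% of genes of like signal, namely Acox2, Slc27a5, Scp2, Abcb11 and Nr1h4. Over all 10221 such genes the share was 5.03%, which the range itself sets. As above, nothing particular to the group is read from so few genes.

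**Figure D1:**
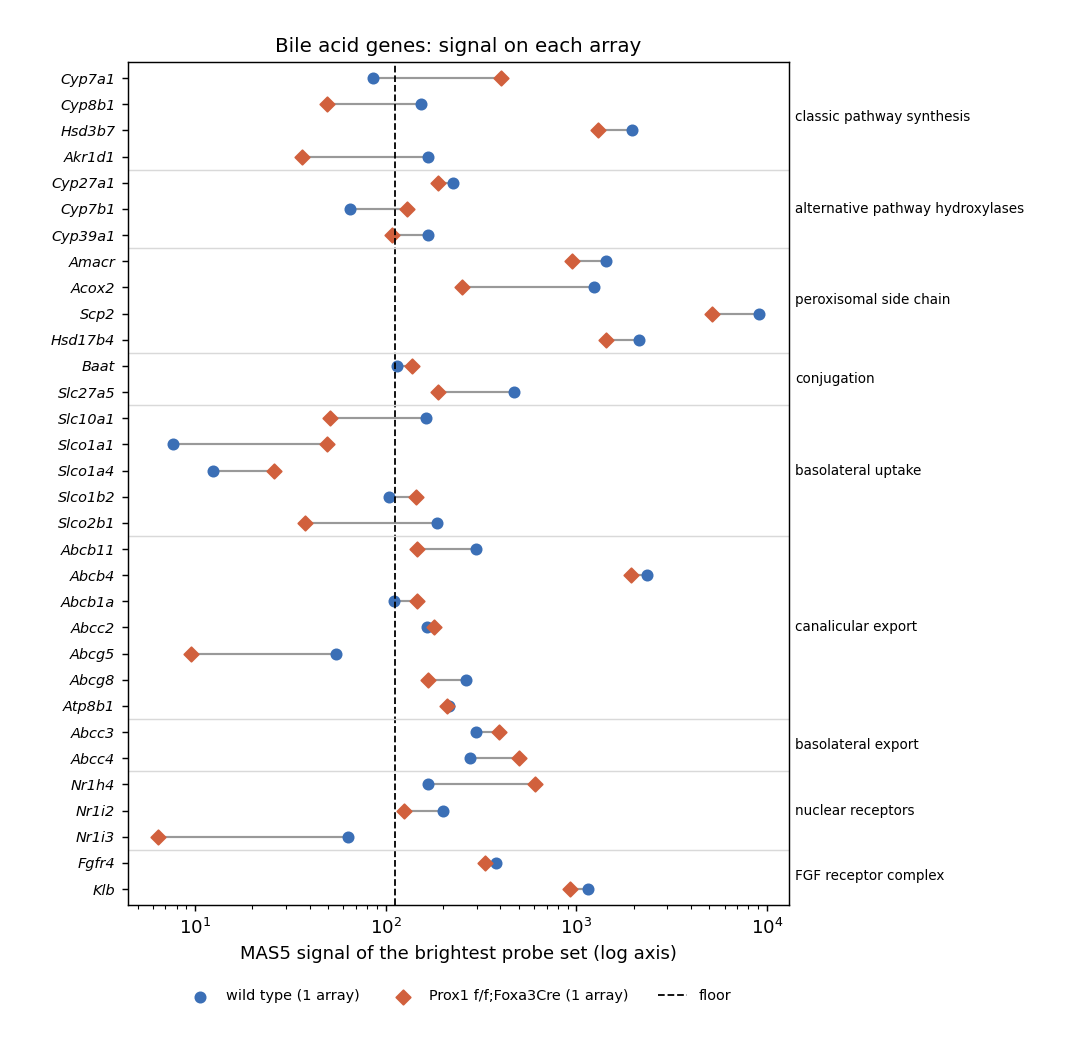
MAS5 signal of the brightest probe set of each of the 32 bile acid genes on a log axis, with a circle for the wild-type array, a diamond for the knockout array and a dashed line at the floor of 112.6. Nr1h4 and Cyp7a1 lie to the right in the knockout, Acox2 moves from 1232 to 252, and Slco1a1, Slco1a4, Abcg5 and Nr1i3 lie left of the floor on both arrays.

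Many of these genes were dim in the fetal liver, and this limits what the arrays can show. Of the 28 measured members, 16 had a mean signal below 250, or 57.1%, against 24.3% of all measured genes. Another 4 members did not reach the floor on either array. A gene below the floor in the knockout can reach the 2-fold mark only if its wild-type signal exceeds 225.2. That was so for 14 members, among them Acox2, Slc27a5 and Abcb11. Over all 8755 genes above that signal in wild type, 2.78% were lower by 2-fold or more. In the other direction 12 members exceeded 225.2 in the knockout, Nr1h4 and Cyp7a1 among them, and 4.12% of the 9063 such genes were higher by 2-fold or more. Above the floor in wild type only were 5 members (17.9% of 28, against 3.19% of all measured genes). These were Cyp8b1, Akr1d1, Cyp39a1, Slc10a1 and Slco2b1. Above it in the knockout only were 4 members (14.3%, against 7.12%), namely Cyp7a1, Cyp7b1, Slco1b2 and Abcb1a. None of the 5 genes seen in wild type only could have reached the 2-fold mark.

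Upstream sequence was available from RefSeq (build GRCm38.p6) for 23 of the 32 members, in 29 windows of 250 bases that end at an annotated transcription start. The windows were searched on both strands for 5 short motifs of liver factors. The core AAGTCCA of the site bound by HNF4, a nuclear receptor that drives hepatocyte genes, was found in 5 of the 29 windows, each of a different gene, and it is present in 3.36% of all 32851 windows of this length. These genes were Abcb11, Cyp8b1, Nr1i2, Abcc2 and Abcc4. In the knockout Abcb11, Cyp8b1 and Nr1i2 were lower, Abcc2 was nearly level and Abcc4 was higher, as described below. The Abcc4 match lies in a window at a start inside the gene. Another Abcc4 window, nearer the 5′ end of the gene (chr14:118706220-118706469), held no match of the 5 motifs. The orphan nuclear receptor motif AAGGTCA was found upstream of Abcc2 and Slco1a1 (4.08% of all windows) and the FOXA motif TGTTTAC upstream of Abcb1a (3.17% of all windows). No match of these motifs overlapped another. The inverted repeat of the FXR site (0.0061% of all windows) and a motif of HNF1 (0.37% of all windows), both in a strict form, had no match in the members' windows. The windows below are shown because they hold the HNF4 core, apart from that of Nr1h4. Nr1h4 is shown as the member above the floor on both arrays that was at least 2-fold higher, and its window held none of the 5 motifs. That window lies at a start inside the gene, which spans chr10:89454234-89533645. Sequence before the 5′ end of Nr1h4 was not searched. Each is given 5′ to 3′ on the strand of the gene, with matches in capitals; TGGACTT is the core read on the opposite strand. A match is a description of the letters and not evidence of binding.
Abcb11, chr2:69342617-69342866, minus strand: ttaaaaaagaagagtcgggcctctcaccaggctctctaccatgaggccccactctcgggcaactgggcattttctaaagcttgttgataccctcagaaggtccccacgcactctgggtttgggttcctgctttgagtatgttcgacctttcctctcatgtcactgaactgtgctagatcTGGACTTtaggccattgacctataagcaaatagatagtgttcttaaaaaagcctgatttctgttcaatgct
Cyp8b1, chr9:121916306-121916555, minus strand: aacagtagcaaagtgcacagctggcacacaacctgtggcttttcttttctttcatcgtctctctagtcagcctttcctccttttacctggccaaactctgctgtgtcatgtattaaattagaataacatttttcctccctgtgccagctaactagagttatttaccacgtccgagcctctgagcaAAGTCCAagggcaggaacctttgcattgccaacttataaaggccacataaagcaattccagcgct
Nr1i2, chr16:38294825-38295074, minus strand: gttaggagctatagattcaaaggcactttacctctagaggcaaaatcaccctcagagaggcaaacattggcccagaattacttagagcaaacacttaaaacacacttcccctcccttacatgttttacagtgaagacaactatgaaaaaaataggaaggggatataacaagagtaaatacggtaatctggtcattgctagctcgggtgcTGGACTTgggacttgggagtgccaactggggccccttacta
Abcc2, chr19:43782058-43782307, plus strand: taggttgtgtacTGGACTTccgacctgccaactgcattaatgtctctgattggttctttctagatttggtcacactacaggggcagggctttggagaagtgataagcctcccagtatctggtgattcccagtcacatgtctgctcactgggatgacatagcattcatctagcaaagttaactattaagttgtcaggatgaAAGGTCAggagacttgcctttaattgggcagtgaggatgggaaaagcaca
Abcc4, chr14:118676932-118677181, minus strand: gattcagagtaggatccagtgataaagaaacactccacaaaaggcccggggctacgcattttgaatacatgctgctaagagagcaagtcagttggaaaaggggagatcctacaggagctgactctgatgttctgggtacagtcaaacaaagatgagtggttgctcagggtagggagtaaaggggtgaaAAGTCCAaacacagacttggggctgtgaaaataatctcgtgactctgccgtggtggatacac
Nr1h4, chr10:89506659-89506908, minus strand: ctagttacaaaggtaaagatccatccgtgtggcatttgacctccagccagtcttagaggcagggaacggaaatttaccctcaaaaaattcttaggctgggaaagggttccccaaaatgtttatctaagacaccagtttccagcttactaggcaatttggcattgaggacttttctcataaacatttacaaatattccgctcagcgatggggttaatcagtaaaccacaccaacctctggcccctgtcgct

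Genes of the classic pathway lay in both directions. Cyp7a1 read 86.1 in wild type, below the floor, and 401 in the knockout, at least 3.56-fold higher. Its other probe set read 57.8 and 233, so both probe sets crossed the floor in the knockout, the second with a log2 bound of 1.05. Cyp8b1, the sterol 12-alpha-hydroxylase that sets how much cholic acid is made, went the other way, from 153 to 49.4, below the floor, and was at least 1.36-fold lower. Akr1d1, the reductase that acts on the sterol ring after the first steps, read 166 and 36.5 on its brightest probe set and 190 and 18.0 on the other, so both were above the floor in wild type and well below it in the knockout. The bounds on its log2 difference were -0.56 and -0.76. Hsd3b7, the dehydrogenase that follows the first hydroxylation of the classic pathway, was bright on both arrays at 1951 and 1301, a log2 difference of -0.58. The gene of the first step was therefore higher in the knockout sample and the genes of the later classic steps were lower in it, each except Hsd3b7 known only as a bound.

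The hydroxylases of the alternative pathway were dim on both arrays. Cyp27a1, the mitochondrial sterol 27-hydroxylase, read 227 and 188, a log2 difference of -0.27 that lies within the middle 95% of genes of like signal (-0.79 to 1.10). Its second probe set was near 0, at 6.15 and 7.64. Cyp39a1, which hydroxylates 24-hydroxycholesterol, went from 167 to 107.9, just under the floor. Cyp7b1, the oxysterol 7-alpha-hydroxylase, went from 65.1 to 129.7, just above the floor, and its 2 remaining probe sets stayed under the floor, at 83.2 and 96.5 and at 9.05 and 21.9. Cyp7b1 is known as a male-predominant gene of adult mouse liver, and sex differed between the samples as Xist and Eif2s3y show; its part in this reading was not tested.

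All 4 peroxisomal genes of side chain shortening were above the floor on both arrays and lower in the knockout. Acox2, the oxidase for branched side chains of bile acid intermediates, gave 1232 in wild type against 252 in the knockout. It was 4.88-fold lower, a log2 difference of -2.29, where the middle 95% of genes of like signal ran from -1.01 to 1.12. Scp2, the sterol carrier and thiolase, read 9072 and 5186, 1.75-fold lower, and its 3 other probe sets were lower by similar amounts, with log2 differences of -0.95, -0.78 and -0.70. The Scp2 difference of -0.81 lay just outside the middle 95% of the brightest genes (-0.78 to 0.47). Amacr, the racemase that prepares the side chain for oxidation, read 1431 and 948, 1.51-fold lower. Hsd17b4, the bifunctional enzyme of the following step, read 2129 and 1435 on its brightest probe set, 1.48-fold lower, but 1189 and 1092 on the other, a log2 difference of -0.12. Acox2 thus stands apart in size, and the other 3 genes share a direction with differences under 2-fold.

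The genes of conjugation did not go together. Slc27a5, the ligase that activates bile acids to their CoA esters, read 471 and 189, 2.49-fold lower, a log2 difference of -1.32 outside the middle 95% of like genes (-1.01 to 1.12). Baat, the transferase that adds taurine or glycine, was barely above the floor on both arrays at 114.9 and 137. A second Baat probe set was below the floor at 91.5 and 41.5, so the Baat probe sets differ in direction and neither shows a clear signal.

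**Figure D2:**
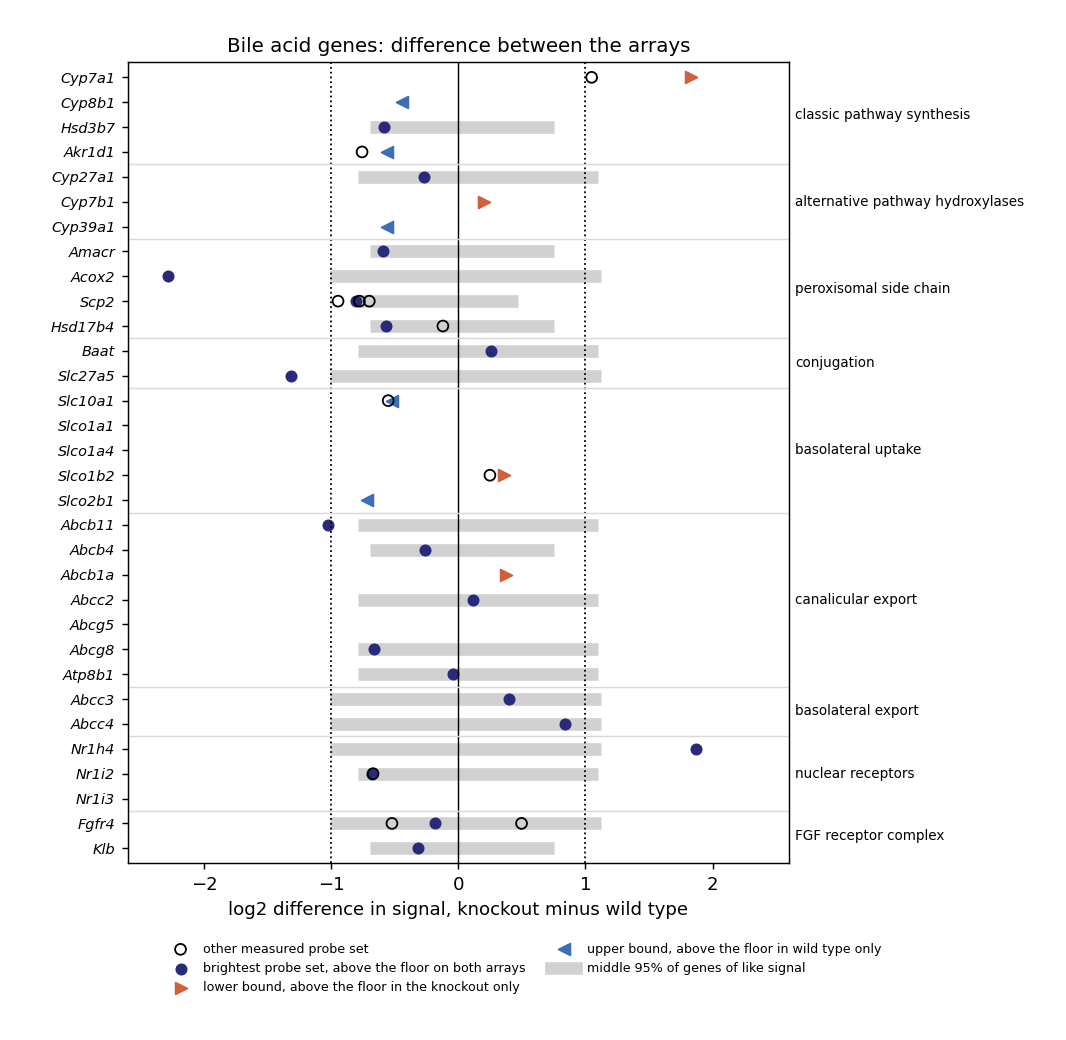
Log2 difference in signal (knockout minus wild type) for each bile acid gene, grouped by role, with filled points for genes above the floor on both arrays, triangles for bounds pointing to where the true value lies, and open circles for other measured probe sets. Grey bars give the middle 95% of genes of like signal and dotted lines the 2-fold mark; Acox2, Slc27a5, Abcb11 and Scp2 lie left of their bars and Nr1h4 right of its bar.

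Of the 5 uptake transporters of the basolateral membrane, 3 were above the floor on 1 array and 0 on both arrays. Slc10a1, the sodium-dependent bile acid carrier NTCP, read 162 and 51.1 on its brightest probe set and 165 and 26.7 on the other, so both probe sets were above the floor in wild type only. The bound was 1.44-fold lower. Slco2b1, an organic anion carrier, went from 186 to 37.7, at least 1.65-fold lower, while its 2 remaining probe sets never reached the floor and read 19.8 and 69.3, and 10.1 and 13.4. Slco1b2, the main hepatic organic anion carrier for unconjugated bile acids, went from 104 to 145 and, on a second probe set, from 92.2 to 134, and its 3 remaining probe sets were below the floor. Slco1a1 (7.66 and 49.1, with its other probe set at 7.91 and 5.34) and Slco1a4 (12.4 and 25.9) did not reach the floor in either sample. Both are known for sex-biased levels in adult liver, which could not be assessed at these signals. The Slco1a genes are also close paralogs, so that even a brighter reading might not belong to a single gene.

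Among the canalicular exporters only Abcb11 reached the 2-fold mark. Abcb11, the bile salt export pump, gave 296 in wild type against 146 in the knockout, 2.04-fold lower, a log2 difference of -1.03 just past the mark and outside the middle 95% of like genes (-0.79 to 1.10). Abcg8, which with Abcg5 forms the sterol exporter, read 264 and 167, 1.58-fold lower. Its partner Abcg5 stayed under the floor, at 54.7 and 9.49. Abcb4, the phospholipid exporter, was by contrast bright at 2338 and 1949, a log2 difference of -0.26. Atp8b1, a flippase that protects the canalicular membrane, read 215 and 209, nearly the same on both arrays. Abcc2, the exporter of conjugated organic anions, read 166 and 180, a log2 difference of 0.12 that became -0.01 under lowess correction. Abcb1a, a drug exporter with a close paralog, read 110.5 and 146, and its second probe set 69.4 and 65.9. The exporters therefore ranged from a log2 difference of -1.03 to a bound of 0.38. Abcb11 and Abcc2, with log2 differences of -1.03 and 0.12, both have the HNF4 core in their windows, 71 and 238 bases before the start. A link between the core and the signal was not tested.

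The basolateral exporters were both higher in the knockout, below the 2-fold mark. Abcc4, which exports bile acids with glutathione towards the blood, read 278 and 498, 1.79-fold higher. Abcc3, which exports conjugates to the blood, read 298 and 392, 1.32-fold higher. Their log2 differences of 0.84 and 0.40 lay within the middle 95% of genes of like signal (-1.01 to 1.12).

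Of the nuclear receptors, Nr1h4 alone passed the 2-fold mark. On its only probe set it gave 167 in wild type against 610 in the knockout, 3.66-fold higher. The log2 difference of 1.87 lay outside the range of like genes (-1.01 to 1.12). Nr1i2, the xenobiotic and bile acid receptor PXR, was lower, at 199 and 124 on its brightest probe set and 179 and 104.7 on the other, with a log2 difference of -0.68 and a bound of -0.67. Nr1i3, the receptor CAR, stayed under the floor, at 63.2 and 6.39. The receptor for the hormone FGF15, which reports bile acid return from the gut, was measured through Fgfr4 and its co-receptor Klb. Fgfr4 read 377 and 332 on its brightest probe set. Its other measured probe sets went from 237 to 165 and from 122 to 172, in opposite directions, and this was the single case of disagreement among 8 members with more than 1 measured probe set. Klb read 1153 and 927, a log2 difference of -0.31.

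**Figure D3:**
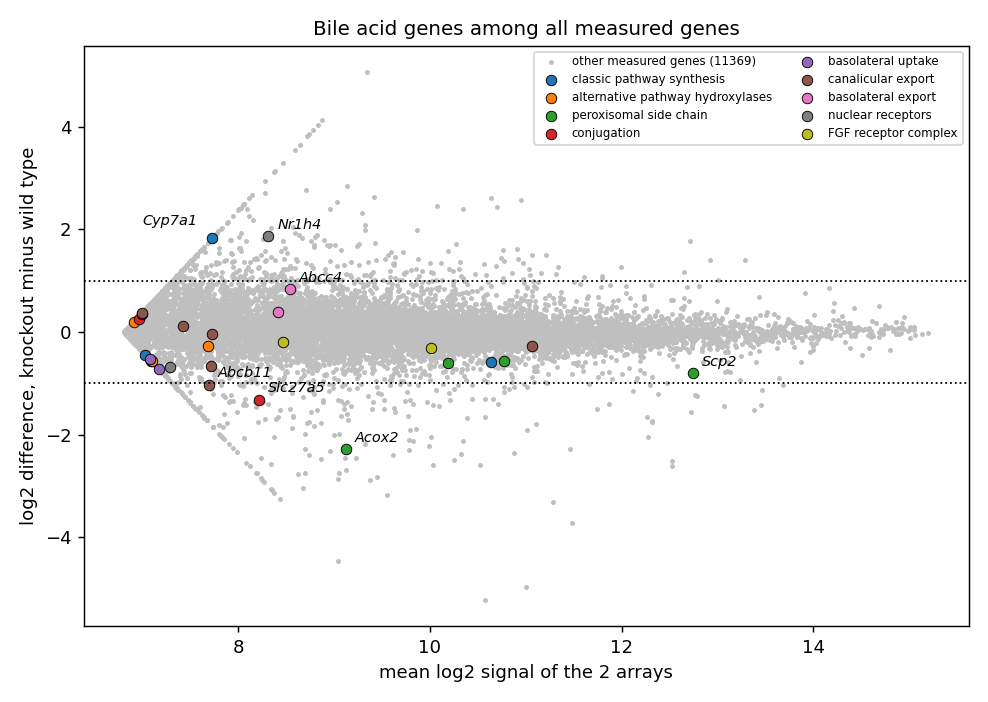
Log2 difference (knockout minus wild type) against mean log2 signal of the 2 arrays for the 28 measured bile acid genes, coloured by role, and for the other measured genes in grey; dotted lines mark 2-fold, and genes on the slanting edges have bounds. Most bile acid genes lie at the dim end, with Acox2 lowest and Nr1h4 and Cyp7a1 highest among them.

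Other genes of the pathway were read from a list of 64 cofactors, regulators and neighbouring enzymes that are not members. The platform annotation gave 53 of them a probe set of their own, and 41 were measured. The 2-fold mark was passed by 6 genes downwards and by 2 upwards, and the median log2 difference was 0.06, beside a median of 0.03 over all measured genes. The shares of the list were 14.6% lower and 4.88% higher, against the 2.13% and 3.27% given above. Slc27a2, an acyl-CoA synthetase that also activates a bile acid precursor, read 4098 and 1183, 3.46-fold lower. Acaa1b, a peroxisomal thiolase with a near-identical paralog, went from 943 to 69.0 and was at least 8.37-fold lower, and Ehhadh, the other bifunctional enzyme, read 667 and 333, 2.005-fold lower. Acot8, a peroxisomal thioesterase named here after its value was seen, read 989 and 887, a log2 difference of -0.16.

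The remaining lower genes act in clearance and transport. Cyp3a11, a hydroxylase of bile acids and drugs from a family of close paralogs, read 1068 and 32.9, at least 9.49-fold lower. Sult2a8, a bile acid sulfotransferase of mouse liver, went from 346 to 66.4, at least 3.07-fold lower, and the transporter Abcc6 from 284 to 97.0, at least 2.52-fold lower. Higher in the knockout were Cyp2c70, which makes muricholic acids in mice, at 766 and 1801 (2.35-fold), and Slc51a, a chain of the basolateral exporter OST, at 62.6 and 239 (at least 2.12-fold). The other OST chain, Slc51b, was below the floor at 77.3 and 39.6. Of the regulators, named after their values were seen, Nr0b2, which encodes SHP, did not reach the floor at 68.7 and 98.7. Nr0b2, Slc51a and Abcb11 are all known as FXR targets, and they were respectively unmeasured, higher and lower. Nr5a2, an activator of Cyp7a1, had no settled direction, with log2 differences of 0.30 on its brightest probe set (804 and 992) and -0.07 and -0.81 on the other measured ones. Hnf4a read 2280 and 1562 on its brightest probe set (-0.55), with log2 differences of -0.85, -0.40 and -0.04 on the others. Nr1h3, the oxysterol receptor, read 307 and 469 (0.61).

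The samples were checked against cell type markers, because bulk RNA mixes cells and a lower signal from fewer cells of a type cannot be told apart from less RNA per cell. Hepatocyte markers were mostly lower in the knockout, but not all of them. Of 16 measured secreted proteins, 9 were at least 2-fold lower (median log2 difference -1.08, summed signal 253533 and 161940), and so were 7 of 9 enzymes (median -1.36, summed signal 13770 and 5714). The other 7 secreted proteins stayed under 2-fold. Among them Alb and Ttr, named after their values were seen, had log2 differences of 0.03 and -0.05. The enzyme genes Ass1, Cyp2e1, Tat and Tdo2 were below the floor on both arrays. The 7 measured hepatoblast genes had 0 members 2-fold apart and a median of 0.08 (67790 and 70023). Bile duct genes had 5 of 11 at least 2-fold higher (median 0.54, 9271 and 14982), with Cftr, Muc1, Onecut1 and Pkhd1 under the floor in both samples. Mesenchymal genes had 8 of 14 higher (median 1.41, 16527 and 34769) and granulocyte genes 5 of 9 (median 1.02, 34495 and 71993). Macrophage genes had 1 of 7 higher (median 0.42). No gene passed 2-fold among 5 erythroid (median -0.01), 9 endothelial (0.37) and 6 megakaryocyte genes (0.28). The same held for 3 kidney tubule (median 0.30) and 2 lymphoid genes (0.77). Yolk sac endoderm genes had 4 of 10 at least 2-fold higher and 1 lower (median 0.41, 25909 and 23984), with Lrp2, Entpd2 and Fxyd2 below the floor. Of 16 gut and stomach genes 6 were measured (median -0.35, summed signal over all 16 of 2872 and 2824), of which 2 passed 2-fold upwards and 0 downwards. These were Muc13, from 249 to 790, and Vil1, from 20.6 to 260. The other 4 measured genes were lower in the knockout. Fabp2, Tff1 and Lgals2 had log2 differences of -0.71, -0.75 and -0.48, and Lgals4 had a bound of -0.23. The gut-defining factors Cdx1 and Cdx2 read below 10 on both arrays. These gut and stomach genes were named after their values were seen. All 7 pancreas genes were below the floor. These marker levels differed between the same samples as the bile acid genes, and their part in each difference above was not tested.

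**Figure D4:**
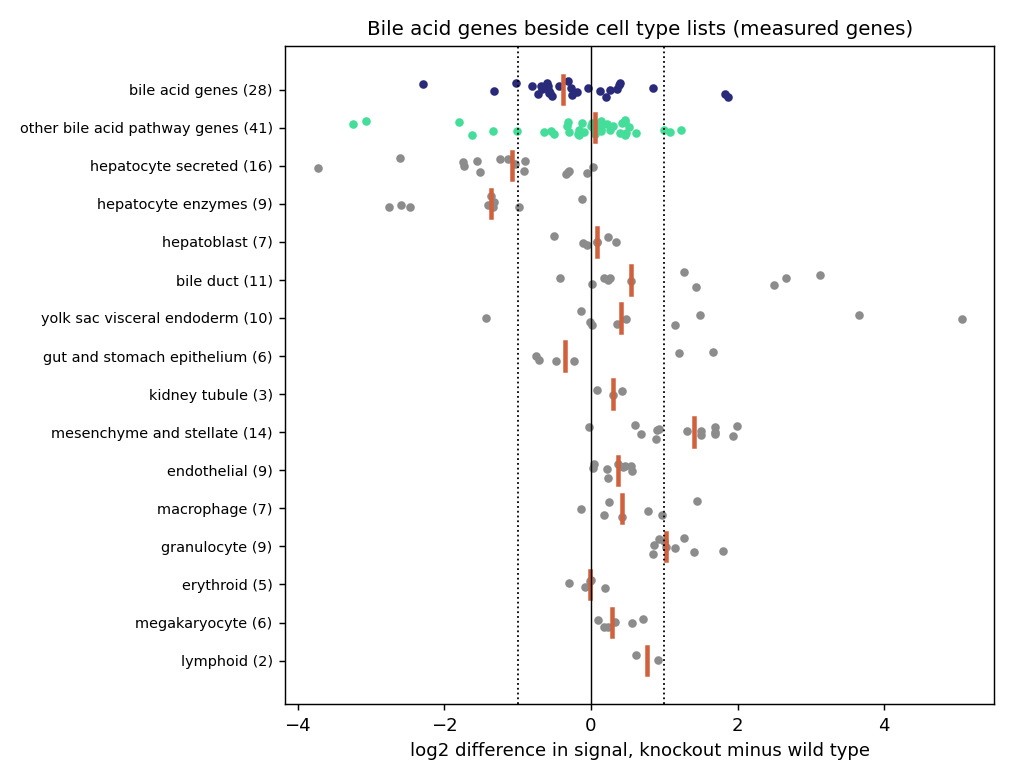
Log2 difference (knockout minus wild type) of each measured gene in the bile acid group, in the other bile acid pathway genes and in the cell type lists, with the number of measured genes in brackets and a red bar at each median. The bile acid median of -0.38, which includes bounds, lies between those of hepatocyte enzymes (-1.36) and hepatoblast genes (0.08).

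The direction of the 5 differences past 2-fold held when the signals were handled otherwise. Nr1h4 was at least 2-fold higher under all 9 alternative ways of handling the signals, with log2 differences from 1.37 to 1.87, and Cyp7a1 under all 9, from 1.08 to 2.22. Acox2 was at least 2-fold lower under the 8 that retained its probe set, from -2.33 to -1.88. Slc27a5 was 2-fold lower under 8 of 9, with -0.95 when a pseudocount replaced the floor. Abcb11 was so under 7 of 9, with -0.66 under the pseudocount and -0.64 under a floor raised to the 60th percentile. Bounds moved most: with no floor Akr1d1, Slco2b1, Slc10a1 and Cyp8b1 had log2 differences of -2.19, -2.30, -1.67 and -1.63, all past the 2-fold mark. These larger values rest on signals below 112.6 in the knockout, where MAS5 readings scatter.

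**Figure D5:**
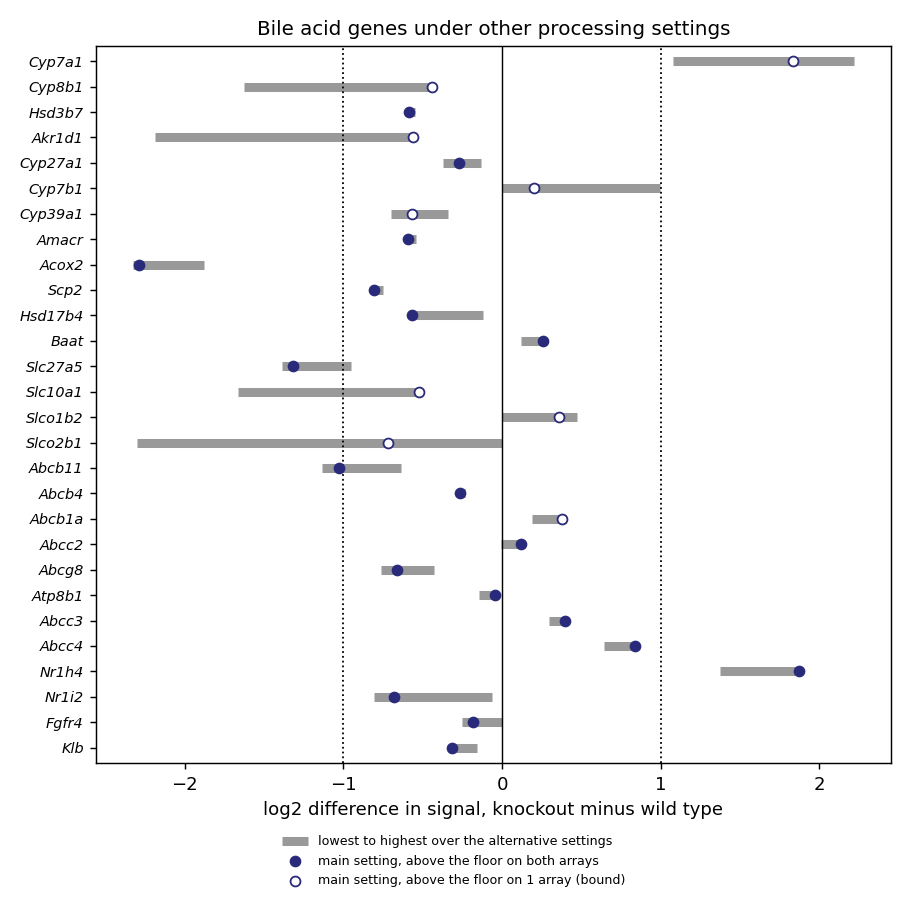
Log2 difference (knockout minus wild type) of the 28 measured bile acid genes in the main setting (points, open for bounds) and its lowest and highest values over the alternative floors, scalings and probe set rules (grey bars); dotted lines mark 2-fold. Bars are short for bright genes such as Abcb4 and Scp2 and long for genes near the floor such as Slco2b1, Akr1d1 and Cyp8b1.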

How the data were processed

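Liver RNA of 1 wild-type and 1 Prox1 f/f;Foxa3Cre sample was hybridized to 1 array each. The deposited intensity values are MAS5 signals on a linear scale, per the submitters' processing notes; the sources used here do not give its version. Both arrays had the same 2% trimmed mean of 500.0, so values were used as deposited. The number of arrays limits the precision, and with no replicates no SD, standard error or test was possible.

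Of 45101 probe sets, 64 controls were left out. The platform annotation, which can be old, gave 34945 of the rest 1 symbol, 932 several and 9160 none; only the first kind named genes. Of these, 34741 had their identifier in the RefSeq table (GRCm38.p6), which changed 0 symbols. Signals were raised to the floor of 112.6, the higher 50th percentile. A gene was represented by its brightest probe set, by mean log2 signal before flooring. Bins of mean signal had edges at 250, 1000 and 5000. Counting was tested on simulated data. Every member is named, as are other pathway genes at least 2-fold apart; further names are marked. The members, lists and rules were chosen with earlier results of these data known. The alternatives were other floors, a pseudocount, probe set rules, rescaling and size rules. Software was matplotlib 3.10.9 for plots, statsmodels 0.14.6 for lowess and, for all else, pandas 2.3.3, numpy 2.4.6 and scipy 1.17.1 under Python 3.11.15.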

Additional observations from a re-analysis of the deposited data

How the results depend on the processing

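Of 28 measured members, 3 were at least 2-fold lower in the main setting and 2 at least 2-fold higher. The lower count, with the share of all genes beside it, was 7 (2.8%) with the floor at the 30th percentile, 9 (8.08%) with no floor and no filter, 1 (1.56%) with a pseudocount in place of the floor, 8 (5.21%) at 1.5-fold and 1 (0.895%) at 3-fold. The higher count was 4 (13%) with no floor and no filter. Of the other pathway genes, 2 were higher; this count was 4 with the floor at the 30th percentile, 1 at the 60th, 7 with no floor, 1 without probe sets whose suffix (_s_at, _x_at or _a_at) marks probes shared between transcripts, 1 under lowess correction, 4 at 1.5-fold and 0 at 3-fold, where 0.869% of all genes were higher. The lower count of 6 became 10 with no floor, 4 with the floor at the 60th percentile, 4 with the pseudocount and 4 at 3-fold. The cause of these moves was not tested, beyond the number of genes each floor admits. The members' median of -0.38 ranged from -0.46 to -0.21. Over single genes and settings, 222 values were close to the main value, 8 newly passed 2-fold, 3 no longer did and 5 moved by over 1.5-fold, and no 2-fold difference changed sign. No paired analysis was possible because each genotype has 1 array. Signal over background limits the 16 members with a mean signal below 250.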
